A study of Mus musculus with 2 samples.

Results

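Regions of open chromatin that lie at the starts of long noncoding RNA genes and far from any start of a protein-coding gene were examined in mouse hippocampus. For each library the authors deposited a shorter and a longer list of regions, and the shorter one is used here unless the longer is named. A region counted where the shorter lists of replicates 1 and 2 overlapped by at least 1 bp on chromosomes 1 to 19, where it lay within 1000 bp of a transcript start of a lincRNA, antisense or lncRNA gene of GENCODE M21, and where every transcript start of a protein-coding gene was more than 5000 bp away. Of 46876 shared regions, 827 met the rule, which is 1.76%. They are called lncRNA-only promoter regions here, although no RNA was measured, so the use of these starts is not known from these data. The tissue was labelled a layer of hippocampus and came from male B6CASTF1/J mice, the first-generation hybrid of C57BL/6J and CAST/EiJ, at an age of 10 days. There was 1 group of 2 DNase-seq libraries, labelled biological replicates 1 and 2. Each came from its own tissue sample described as 3 males, so each library is a pool of animals, and both carry the same donor label. No animal, treatment or genotype served as a control, and the spread given below is that between these 2 libraries only. With 2 libraries an exact two-sided sign-flip permutation test cannot go below p = 0.5, so values are given per library and without a test.

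Long noncoding RNAs are transcripts, usually capped and spliced like messenger RNAs, that do not encode a protein of known function. Some act at the locus that makes them, for example by silencing neighbouring genes on 1 parental chromosome, some build nuclear bodies, and many serve as precursors that carry microRNAs or small nucleolar RNAs. DNase I cuts DNA where nucleosomes are displaced, which happens at active promoters, enhancers and insulators, and a bound protein can leave a short protected stretch, called a footprint, inside the cut region. In brain, long noncoding RNAs are known for strong restriction to cell types and for starts that often lie beside those of transcription factor genes.

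The DNA of the highest regions is shown first, since these carry the strongest signal of the 827. The windows are read from the plus strand of the reference genome (GRCm38.p6, which is mm10), are at most 200 bases long and are centred on the region. Capitals mark bases that lay inside footprints of both libraries. The window at Gm15408 is chr5:149006811-149007010, with 113 of its 200 bases in footprints of both libraries, that at Tmem250-ps is chr2:26140431-26140630, with 76 bases in capitals, and that at Gm42418 is chr17:39846781-39846900, with 12.
Gm15408: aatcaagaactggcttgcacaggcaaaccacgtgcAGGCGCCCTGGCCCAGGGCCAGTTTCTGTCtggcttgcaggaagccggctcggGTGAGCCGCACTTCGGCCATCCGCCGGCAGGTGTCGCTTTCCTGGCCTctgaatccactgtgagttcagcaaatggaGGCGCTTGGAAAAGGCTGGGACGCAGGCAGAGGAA
Tmem250-ps: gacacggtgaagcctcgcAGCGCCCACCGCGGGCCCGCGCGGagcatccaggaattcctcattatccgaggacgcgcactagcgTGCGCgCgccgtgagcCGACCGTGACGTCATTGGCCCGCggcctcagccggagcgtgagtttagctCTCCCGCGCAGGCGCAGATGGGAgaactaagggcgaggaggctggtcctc
Gm42418: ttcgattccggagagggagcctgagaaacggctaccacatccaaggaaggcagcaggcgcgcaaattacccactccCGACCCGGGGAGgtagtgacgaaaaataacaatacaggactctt
Inside the fourth run of capitals of Tmem250-ps stands TGACGTCA, the palindromic element of the CREB and ATF factors (chr2:26140537-26140544), and inside its last run stands CAGATGG, an E-box of the NEUROD type (chr2:26140595-26140601). In all shared regions the same window length held TGACGTCA in 1.32% and CAGATGG, searched like all motifs on both strands, in 8.29%. Gm42418 had the highest signal of all 827 regions and few protected bases, and RefSeq places an 18S ribosomal RNA pseudogene there.

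Next come 2 windows that hold a match to the 12-letter core motif of the insulator protein CTCF, shown because members with this match had greater heights. The window at Gm32834 is chr13:51418641-51418840 and that at Snhg7os is chr2:26640221-26640380.
Gm32834: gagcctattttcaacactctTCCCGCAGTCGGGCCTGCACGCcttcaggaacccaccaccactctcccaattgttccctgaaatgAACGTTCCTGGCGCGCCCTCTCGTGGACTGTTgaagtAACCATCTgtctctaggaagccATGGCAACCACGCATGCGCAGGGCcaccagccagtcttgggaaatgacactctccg
Snhg7os: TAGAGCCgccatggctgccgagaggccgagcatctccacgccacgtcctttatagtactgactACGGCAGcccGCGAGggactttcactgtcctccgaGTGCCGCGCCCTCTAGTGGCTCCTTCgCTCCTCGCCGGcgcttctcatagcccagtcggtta
Both matches lie on the minus strand, so the printed letters are the reverse complement, GCCCTCTCGTGG at Gm32834 (chr13:51418740-51418751) and GCCCTCTAGTGG at Snhg7os (chr2:26640326-26640337). All 12 bases of each match lay inside footprints of both libraries. Gm32834 also held the NEUROD-type E-box on the minus strand (chr13:51418765-51418771), of which 6 of 7 bases were protected in both.

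The long noncoding genes with the most members, Gm3764 with 8 and C130071C03Rik with 6, hold the hairpins of Mir9-1 and Mir9-2 in RefSeq. The member of each with the greatest height in replicate 1 is shown, as DNA of the genes that carry these precursors, chr3:88222161-88222360 for Gm3764 and chr13:83721091-83721290 for C130071C03Rik. These members lie 6.47 kb from the Mir9-1 hairpin and 17.5 kb from the Mir9-2 hairpin.
Gm3764: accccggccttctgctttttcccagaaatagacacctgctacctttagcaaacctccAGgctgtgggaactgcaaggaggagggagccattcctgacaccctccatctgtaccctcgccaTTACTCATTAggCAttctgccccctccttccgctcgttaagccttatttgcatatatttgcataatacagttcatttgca
C130071C03Rik: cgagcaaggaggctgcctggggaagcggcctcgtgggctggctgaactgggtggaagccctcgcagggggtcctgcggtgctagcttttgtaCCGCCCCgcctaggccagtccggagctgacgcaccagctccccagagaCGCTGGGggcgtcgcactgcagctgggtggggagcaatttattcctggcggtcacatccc
Each had 14 bases inside footprints of both libraries. The letters ccatctg in the Gm3764 window are an unprotected NEUROD-type E-box on the minus strand. The mature microRNA is the same from Mir9-1, Mir9-2 and Mir9-3, and its seed, bases 2 to 8, is in capitals.
miR-9-5p: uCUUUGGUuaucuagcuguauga

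A pair of regions at imprinted genes completes the set, Meg3 at chr12:109542951-109543150 and Kcnq1ot1 at chr7:143296601-143296800, because they differ in base composition and in the letters that were protected.
Meg3: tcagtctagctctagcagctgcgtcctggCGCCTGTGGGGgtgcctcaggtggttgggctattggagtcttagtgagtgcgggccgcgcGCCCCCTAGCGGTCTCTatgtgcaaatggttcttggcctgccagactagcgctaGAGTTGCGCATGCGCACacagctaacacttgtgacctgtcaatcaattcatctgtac
Kcnq1ot1: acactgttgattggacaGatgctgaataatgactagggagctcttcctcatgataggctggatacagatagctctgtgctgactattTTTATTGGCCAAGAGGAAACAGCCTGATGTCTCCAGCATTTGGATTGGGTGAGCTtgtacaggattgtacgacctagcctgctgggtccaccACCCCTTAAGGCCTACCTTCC
Meg3 held the palindromic 10-letter motif of nuclear respiratory factor 1 (chr12:109543099-109543108), which lies in its last run of capitals, with all 10 bases protected in both libraries. That motif stood in 0.605% of lncRNA-only promoter regions and in 0.693% of all shared regions. Kcnq1ot1 held the CCAAT box, read on this strand as ATTGG, 3 times in its window, and the last 2 copies lie in capitals. Windows with at least 3 CCAAT boxes on either strand made up 1.09% of lncRNA-only promoter regions, 2.36% of coding promoter regions and 1.35% of all shared regions. The CCAAT box was counted after the Kcnq1ot1 sequence had been seen.

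The signal of a region is the height that the authors deposited with it, a value of their own whose scaling is not stated and which is used here only to describe and rank regions. For lncRNA-only promoter regions, replicates 1 and 2 gave median heights of 1.20 and 1.49, which average 1.34 ± 0.202 (SD, n = 2). Coding promoter regions, the 18811 shared regions within 1000 bp of a coding start, had medians of 1.66 and 2.28, which average 1.97 ± 0.437 (SD, n = 2). The medians of the lncRNA-only regions were lower in both libraries, and the ranges of the libraries did not overlap. Distal regions, the 21332 that lay more than 1000 bp from every annotated start and more than 5000 bp from coding ones, had medians of 1.02 and 1.22. The lncRNA-only regions were higher than these within each library, but their replicate 1 median of 1.20 was below the distal median of 1.22 in replicate 2. Over all 46876 shared regions the medians were 1.21 and 1.57.

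**Figure D1:**
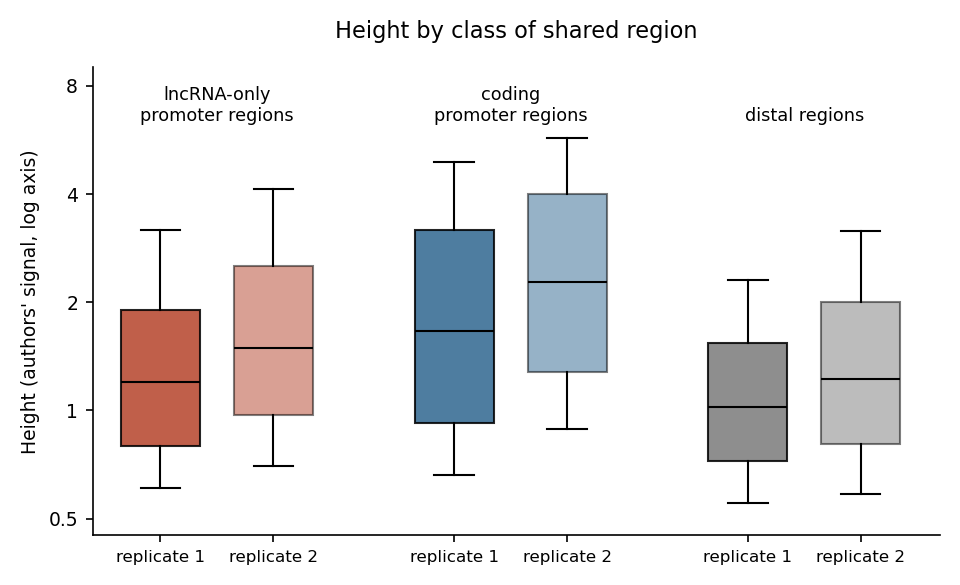
Height of shared regions (authors' signal, log axis) in each library, by class, with boxes from the 25th to the 75th percentile, a line at the median and whiskers from the 10th to the 90th percentile. The lncRNA-only promoter regions, with medians of 1.20 and 1.49, sit between the coding promoter regions at 1.66 and 2.28 and the distal regions at 1.02 and 1.22.

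Other measures of the same regions kept that middle position. The median width was 200 and 220 bp in replicates 1 and 2 for lncRNA-only regions, 240 and 268 bp for coding promoter regions, and 180 and 195 bp for distal regions. Of the 1000 bp around a region's centre, the authors listed a median of 472 and 641 bases at a false discovery rate of the cut rate of at most 0.05 in lncRNA-only regions. The same count was 749 and 878 bases for coding promoter regions and 304 and 379 bases for distal regions. In both libraries the listed bases were fewer around lncRNA-only regions than around coding promoter regions and more than around distal ones. All shared regions had a median width of 200 and 204 bp and a median of 436 and 602 listed bases.

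Among the highest regions of the genome, coding promoters made up the greater part. Of the 100 highest shared regions 2 were lncRNA-only and 82 were coding promoter regions, which numbered 18811 of all 46876 shared regions. The higher of the 2 was Gm42418, whose reads cannot be told apart from those of ribosomal DNA. Of the 1000 highest 17 were lncRNA-only, which is 1.7%, and of the 10000 highest 136 were, which is 1.36%, beside the 1.76% that they made up of all regions.

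Gm42418 stood alone at the top with a height of 36.2 in replicate 1 and 52.1 in replicate 2. The next region, at Gm15408, had 10.2 and 12.5. The Gm42418 region has a near-identical copy elsewhere in the assembled chromosomes and lies in the RefSeq pseudogene Rn18s-rs5, so reads from ribosomal DNA and from this locus cannot be told apart. Tmem250-ps followed with 8.43 and 10.2, and RefSeq, unlike GENCODE M21, has a coding transcript start inside this region.

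Malat1, which makes an abundant RNA of nuclear speckles, had 3 member regions. The highest, centred 999 bp upstream of the nearest start, had 8.45 in replicate 1 and 9.42 in replicate 2. A region over the start had 6.07 and 7.51, and a narrow one between them had 1.32 and 2.20. Thus the strongest signal lay upstream of the annotated start rather than over it in both libraries. Other high members were 1700096K18Rik with 7.40 and 8.87, Gm32834 with 7.23 and 8.36, and 6720427I07Rik with 6.83 and 8.05. The last of these genes holds the hairpins of Mirlet7a-1, Mirlet7d and Mirlet7f-1, members of the let-7 family, which restrains stem cell and growth programmes.

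At the low end stood Gm47710 with 0.277 in replicate 1 and 0.29 in replicate 2 and no footprint in either library. Gm4425, with 0.233 and 0.399, and 2410018L13Rik, with 0.251 and 0.377, were also among the 5 lowest. These regions of chromosome 12 have 19 and 27 near-identical copies elsewhere in the genome, so reads from these loci and from their copies cannot be told apart and the heights are uncertain. In all, 28 members had at least 1 such copy.

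Heights of the 827 regions followed each other between the libraries. Across regions the Pearson correlation of log2 heights was 0.935 and the Spearman correlation 0.917 (n = 827 regions, all from the same pair of libraries). Replicate 2 was higher at 664 members, against 81.5% of all shared regions, and the median log2 ratio of replicate 2 over replicate 1 was 0.32 for members, 0.37 for coding promoter regions and 0.28 for distal regions. A shift of similar size was thus present in all 3 classes. Where several regions of replicate 2 overlapped 1 of replicate 1, the highest was taken. This choice can only raise replicate 2, and its part in the shift was not tested. The greatest difference was at Gm26692, with 0.603 in replicate 1 and 1.90 in replicate 2, a log2 ratio of 1.65. In the other direction, Celrr, with 0.811 and 0.448, had a log2 ratio of -0.86.

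**Figure D2:**
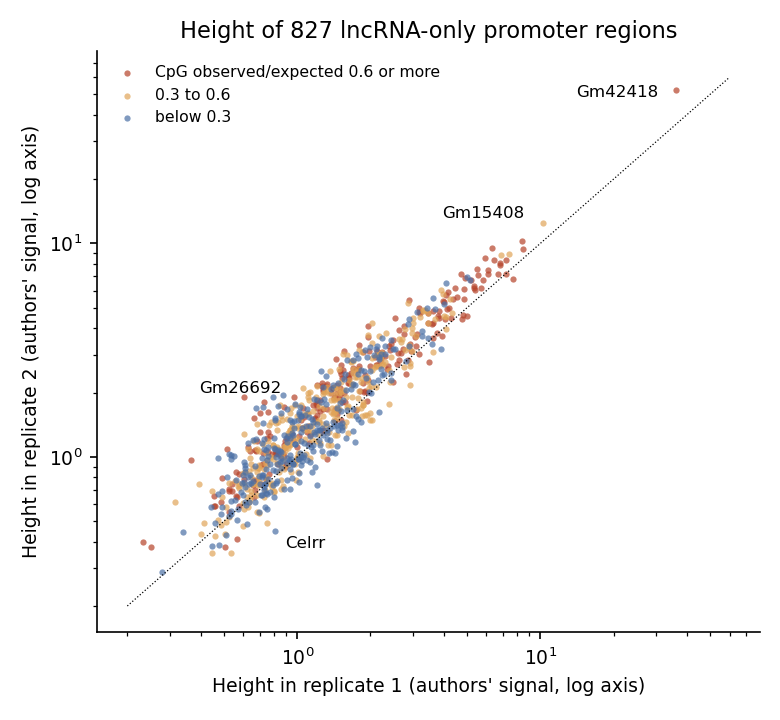
Height of each of the 827 lncRNA-only promoter regions in replicate 1 (x axis) and replicate 2 (y axis), both log axes of the authors' signal, coloured by CpG content, with a dotted line at equal heights. Most points, 664 of 827, lie above the line and Gm42418 stands apart at 36.2 and 52.1. The 239 regions with a CpG ratio of 0.6 or more have medians of 1.53 and 2.15.

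Regions called in 1 library alone had lower median heights than the members, whose medians were 1.20 and 1.49. In replicate 1, 925 regions met both distances, and the 98 not shared had a median height of 0.625. In replicate 2, 1314 regions met them, and the 495 not shared had a median of 0.655. Of the unshared regions, 53 of 98 and 278 of 495 overlapped the longer list of the other library. The shared fraction of regions meeting both distances was 89.4% in replicate 1 and 62.3% in replicate 2, beside 88.4% and 64.3% of all regions, so sharing at these starts was near that of the genome.

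The sequence of lncRNA-only promoter regions stood between that of coding promoters and that of distal DNA. CpG content was taken in 200 bp around the centre as the number of CpG dinucleotides over the number that the C and G content would give. Its median was 0.411 and 0.423 in replicates 1 and 2 for lncRNA-only regions, 0.772 and 0.789 for coding promoter regions, and 0.250 and 0.249 for distal regions. Both libraries read the same reference sequence at overlapping places, so their small spread is no replicate check of the gaps between classes. Over all shared regions the median was 0.41 and 0.414, near that of the members. Of the members 28.9% reached 0.6 in replicate 1, against 72.4% of coding promoter regions, 7.76% of distal regions and 35.3% of all shared regions.

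Among the members, those rich in CpG had the greater heights. The 239 members at 0.6 or more had median heights of 1.53 and 2.15, the 307 members from 0.3 to 0.6 had 1.16 and 1.48, and the 281 members below 0.3 had 1.02 and 1.20. Coding promoter regions at 0.6 or more were higher, with 2.06 and 2.80, while those from 0.3 to 0.6 had 1.14 and 1.46. In the middle band, then, the medians of lncRNA-only and coding promoter regions differed by less than the spread between libraries, and in the highest band the lncRNA-only medians were lower in each library. Distal regions at 0.6 or more had 1.30 and 1.77.

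**Figure D3:**
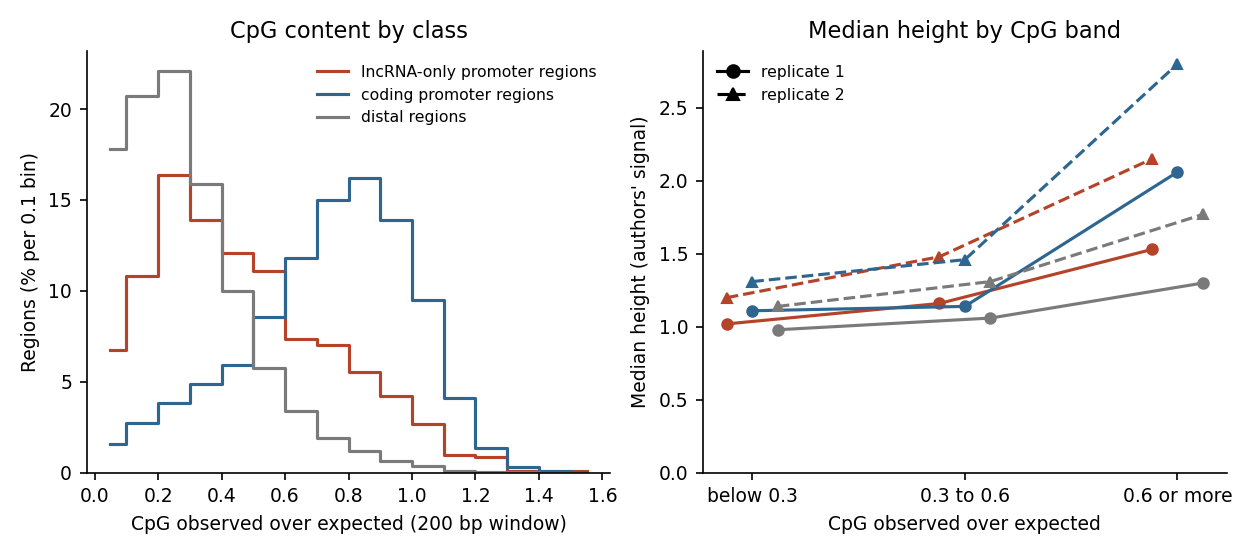
Left, share of regions (%) per bin of 0.1 in CpG observed over expected for the 3 classes. Right, median height (authors' signal) by CpG band, circles for replicate 1 and triangles for replicate 2. At 0.6 or more, lncRNA-only regions had 1.53 and 2.15, coding promoter regions 2.06 and 2.80, and distal regions 1.30 and 1.77, whereas from 0.3 to 0.6 the lncRNA-only and coding medians nearly coincided.

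The extremes of CpG content were not the extremes of height. Gm46404, with the highest CpG ratio of 1.55, had 4.03 in replicate 1 and 5.33 in replicate 2. Gm17767, which had no CpG in its window, had 3.25 and 3.69 and held a CTCF motif. In all, 21 members had no CpG in the window.

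Most members lay beside an annotated start rather than over it. A lncRNA start fell inside 274 members, or 33.1%, while a coding start fell inside 57.8% of coding promoter regions. Any annotated start was counted, and neither the number of starts nor the width, greater in coding promoter regions, was matched. A further 295 members lay upstream and 258 downstream of the nearest start. Median heights were 1.41 and 1.72 over the start, 1.25 and 1.55 upstream, and 1.01 and 1.20 downstream. The median position of the centre was similar, 43 bp upstream of the start for members and 39 bp upstream for coding promoter regions.

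**Figure D4:**
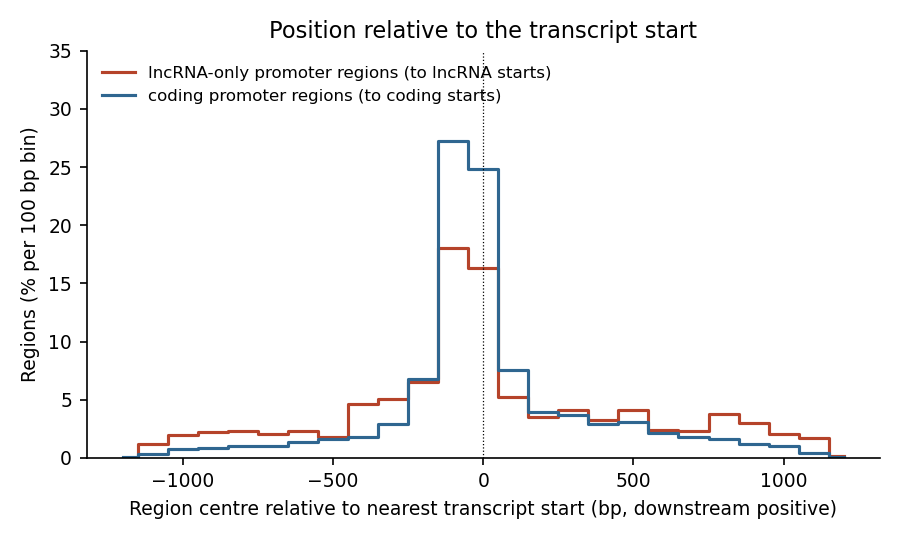
Share of regions (% per 100 bp bin) by the distance of the region centre from the nearest transcript start, with positive values downstream, for lncRNA-only promoter regions against lncRNA starts and for coding promoter regions against coding starts. Both have their highest bin just upstream of the start, at -150 to -50 bp, with 18% of lncRNA-only and 27.2% of coding regions, and the lncRNA-only curve is lower there and at the start and higher in the outer flanks.

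Among regions that cover a start, the medians of the CpG-rich ones were again lower in members. The 101 members over a start with a CpG ratio of 0.6 or more had median heights of 1.90 and 2.57, and the 9030 such coding regions had 2.58 and 3.39. Below 0.3, the 69 members over a start had 1.06 and 1.33, and the 354 coding regions had 1.19 and 1.37. CpG-rich regions made up 36.9% of members over a start and 83% of coding regions over a start.

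Members nearer to coding genes had the greater heights. Members 5 to 10 kb from the nearest coding start, 92 regions, had medians of 1.49 and 2.11. The 365 members at 10 to 50 kb had 1.27 and 1.65, the 164 at 50 to 100 kb had 1.15 and 1.43, and the 206 beyond 100 kb had 0.98 and 1.20. The share with a CpG ratio of 0.6 or more was 37% at 5 to 10 kb and 16% beyond 100 kb, so distance and CpG content moved together, and their separate parts were not tested. At the edges of the rule, 22 members at 5001 to 6000 bp from a coding start had 1.86 and 2.51, while the 27 regions just outside, at 4001 to 5000 bp, had 1.37 and 1.81. At the other edge, 102 members at 751 to 1000 bp from a lncRNA start had 1.20 and 1.43, and 83 regions at 1001 to 1250 bp had 1.21 and 1.40.

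The label of the regions depends on the annotation. RefSeq has a coding transcript start within 1000 bp of 39 members and within 5000 bp of 50, of which 24 have a curated one. A start of a gene of another type lay within 1000 bp of 71 members, whose medians were 1.5 and 1.9. The nearest gene was a lincRNA gene for 675 members, with medians of 1.23 and 1.52, and an antisense gene for 152, with 1.09 and 1.40.

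For CTCF, GC box, ETS and NEUROD motifs the share in members lay between those in coding promoter and distal regions. The CTCF core motif stood in 103 members, or 12.5%, in 5.01% of coding promoter regions, in 22.1% of distal regions and in 15.3% of all shared regions. GGGGCGGGG, the GC box of SP and KLF factors, stood in 4.23% of members, 14.2% of coding promoter regions and 1.09% of distal regions, and in 6.61% of all. CCGGAAGT, the letters of ETS factors, stood in 1.33% of members, 4.76% of coding promoter regions and 0.258% of distal regions, and in 2.13% of all. The E-box CAGATGG of NEUROD factors, which drive neuronal differentiation, stood in 8.59% of members, 3.08% of coding promoter regions and 12.7% of distal regions, beside 8.29% of all. CAGCTGC, the E-box of the ASCL type, stood in 12.2% of members, 7.77% of coding promoter regions, 11.1% of distal regions and 9.67% of all. TGANTCA, the site of FOS and JUN factors, stood in 5.93% of members, 2.56% of coding promoter regions, 6.29% of distal regions and 4.64% of all. CCAATCAG, bound by nuclear factor Y, stood in 2.54% of members, 4.07% of coding promoter regions, 0.994% of distal regions and 2.3% of all. TGACGTCA stood in 1.57% of members, 2.6% of coding promoter regions, 0.389% of distal regions and 1.32% of all.

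Rare motifs were found in few members. The RFX motif, known from genes of cilia, stood in 3 members and 0.177% of all shared regions. GCGTGGGCG, the site of the activity-induced EGR factors, stood in 3 members and 0.457% of all, and the YY1 motif in 1 member, at Gm45605, and 0.363% of all. No member held the consensus used for MEF2, nuclear factor I or REST, which stood in 0.0683%, 0.109% and 0.0683% of all shared regions.

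Shares also differed between members over a start and members beside one. CTCF stood in 9.12% of the 274 members over a start and in 14.1% of the 553 others. The GC box stood in 8.03% of those over a start and in 2.35% of the others. The NEUROD-type E-box stood in 6.57% of those over a start and in 9.58% of the others.

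Members with a CTCF match were higher than those without. Their median heights were 1.85 and 2.59, against 1.12 and 1.40 for the other 724 members. The gap was present in each CpG band: below 0.3, the 45 members with a match had 1.60 and 2.20 and the 236 without had 0.962 and 1.14, and at 0.6 or more the 20 with a match had 2.51 and 3.71 and the 219 without had 1.5 and 2.03. Distal regions also differed this way, with 1.36 and 1.86 with a match and 0.949 and 1.10 without. In coding promoter regions the medians were 1.71 and 2.55 with a match and 1.66 and 2.26 without. The width of members did not go with the match, at a median of 200 bp with and 201 bp without in replicate 1.

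Most CTCF matches in members were touched by a footprint. Covered means here that a footprint overlapped a match in the window by at least 1 base. A footprint covered the match in 94 of 103 members in replicate 1 and in 97 in replicate 2, which is 91.3% and 94.2%, and in 93 in both. Coding promoter regions had 79.5% and 81.3%, and distal regions 95.9% and 96.9%. Footprints held 20.1% and 23.1% of the bases of member windows. That share is for single bases and is not the level at which a longer motif would be touched. The NEUROD-type E-box was covered in 40 and 42 of 71 members, which is 56.3% and 59.2%, beside 39.9% and 42.7% in coding promoter regions and 51.6% and 54.3% in distal regions. CAGCTGC was covered in 28 and 33 of 101 members, which is 27.7% and 32.7%, beside 27% and 28% in coding promoter regions and 34.8% and 39.3% in distal regions. The 5 members with the motif of nuclear respiratory factor 1 were covered in both libraries, as were 98.5% and 97.8% of such coding promoter regions in replicates 1 and 2. A match and a footprint at the same place do not show which protein was bound.

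At least 1 footprint lay in 94.3% of members in the first library, and in 96% in the second (mean 95.2% ± 1.2, SD, n = 2). Over all shared regions the shares were 93.4% and 95.7%. Coding promoter regions had the lower shares, 89.6% and 93.2%, and distal regions the higher, 96.2% and 97.7%. Members held a mean of 3.07 and 3.96 footprints, coding promoter regions 3.65 and 4.90, and distal regions 2.60 and 3.20. The means over all shared regions were 3.05 and 3.94, near those of the members. Of 2536 footprints in members in replicate 1, 66.2% overlapped a footprint of replicate 2, beside 67.3% in coding promoter regions and 71.6% in distal regions. In 14 members neither library had one. The members richest in footprints were C130073E24Rik, with 7 and 18, and 2900072N19Rik, with 9 and 15. Counts were not adjusted for width. The first was 420 and 900 bp wide in replicates 1 and 2, and the second 617 and 640 bp, beside member medians of 200 and 220 bp.

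The members lay within 1000 bp of starts of 693 long noncoding RNA genes. Of these, 569 had 1 member, 97 had 2, 22 had 3, and the rest had 4 to 8. Gm3764 on chromosome 3, which has 11 annotated starts over 23.1 kb, had the most. Its 8 members spanned 0.61 to 2.92 in replicate 1, and 0.617 to 2.24 in replicate 2. Those at chr3:88206598-88206840 and chr3:88207001-88207360 share 1 region of replicate 2. Its widest, 1220 bp long in replicate 1, contains the Mir9-1 hairpin (chr3:88215598-88215686, plus strand). The overlapping region of replicate 2, chr3:88215121-88215400, is 280 bp long and ends before the hairpin, and the heights were 0.817 and 1.07. The member 998 bp from the hairpin was higher, with 2.41 and 2.24.

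C130071C03Rik on chromosome 13, 68.1 kb from the nearest coding start, that of Mef2c, had 6 members, which spanned 0.629 to 2.26 in replicate 1, and 1.11 to 2.73 in replicate 2. The Mir9-2 hairpin (chr13:83738814-83738885, plus strand) had no member on it and 3 members within 1 kb, the highest of which had 1.93 and 1.82. The others, chr13:83737770-83737920 and chr13:83738036-83738180, share 1 region of replicate 2. Mir9-3hg, the host of Mir9-3, had 1 member, with 0.729 and 1.09. miR-9 is abundant in the developing brain and is known to act on the balance of progenitors and neurons. A330102I10Rik, whose nearest coding gene is Sox4, a factor of neuronal differentiation, had 5 members, at 0.547 to 0.855 in replicate 1, and 0.568 to 1.01 in replicate 2, all below the member medians. Those at chr13:29016121-29016340 and chr13:29016481-29016544 also share 1 region of replicate 2.

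Long noncoding genes that carry a microRNA hairpin were open in a larger share than the others. Of the 5808 long noncoding RNA genes over 5000 bp from coding starts, 35 held a RefSeq hairpin on their strand. Of these, 17 were open in replicate 1 and 21 in replicate 2, which is 48.6% and 60%, and 17 were open in both. Of the 5773 without a hairpin, 12.3% and 16.1% were open. Open means that a region of the shorter list lay within 1000 bp of a start. Hairpin hosts were looked for after the loci of Mir9-1 and Mir9-2 had been seen, and gene length and number of annotated starts were not matched between hosts and other genes.

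Most long noncoding genes away from coding genes had no region of the shorter list within 1000 bp of a start. Of the 5808, 12.5% were open in the first library, and 16.4% in the second (mean 14.5% ± 2.73, SD, n = 2). In both libraries 685 were open, and in neither 4813. Of 20807 coding genes 60.8% and 65.3% were open. Long noncoding genes within 5000 bp of a coding start, 2314 in number, were open at 49.4% and 54.8%. Taken over all 28929 long noncoding and coding genes the shares were 50.2% and 54.6%. With the longer list, 19.3% and 24.9% of the 5808 genes and 66.1% and 69.7% of coding genes were open. The number of annotated starts per gene was not matched between these classes. In a bulk sample, fewer open cells and less opening in each cell cannot be told apart.

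Within each band of CpG content the share of lncRNA-only genes was still the lowest. Among genes with a CpG ratio of 0.6 or more at the outermost start, 34.8% and 41.1% of the 494 lncRNA-only genes were open, against 79.9% and 84.5% of lncRNA genes near coding starts and 89.3% and 93.2% of coding genes. Below 0.3, the shares were 7.79% and 10.7% of lncRNA-only genes, 21.4% and 25.6% of lncRNA genes near coding starts, and 18.4% and 22.2% of coding genes. The share was higher in each higher band of CpG content in each class and in both libraries. Genes near a coding start can be counted open for a region at that coding start.

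**Figure D5:**
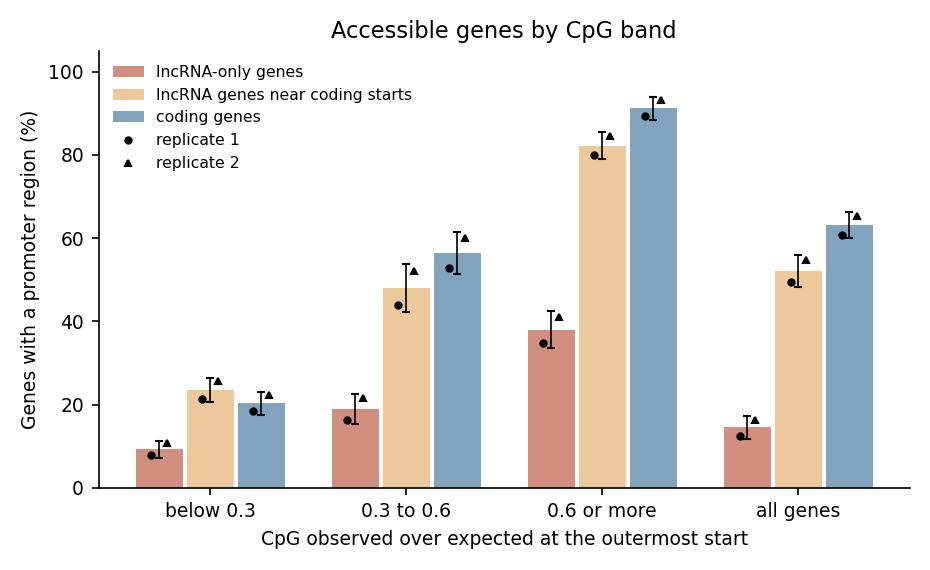
Share of genes (%) with a region within 1000 bp of a start, by CpG band at the outermost start, bars for the mean and error bars for the SD of 2 libraries, circles for replicate 1 and triangles for replicate 2. In the band of 0.6 or more, lncRNA-only genes reached 34.8% and 41.1%, lncRNA genes near coding starts 79.9% and 84.5%, and coding genes 89.3% and 93.2%.

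Well-known long noncoding RNAs were taken from 5 lists, which were chosen with earlier results of these data known. Of all lncRNA-only genes 11.8% were open in both libraries, and of all lncRNA genes near coding starts 48.9%. The first list holds 20 genes of the types in the rule, some known from brain and others, such as Malat1, Neat1, Lncpint and Carmn, made in many tissues or known from other ones. All 8 of its genes over 5000 bp from coding starts had a member. Of its 12 genes near a coding start, 7 were open in both libraries, 1 was open in replicate 2 alone and 4 had no region in either shorter list. Neat1, the scaffold of paraspeckles, had a region shared with Frmd8os with heights of 3.81 and 4.82. Miat, studied in retina and neurons, had 1.47 and 1.65 at its higher region. Rmst, known from neural differentiation, was low with 0.522 and 0.71. Lncpint had 1.62 and 2.41, and Carmn, known from heart and smooth muscle, had 1.31 and 1.77. Dlx6os1 and Dlx1as, beside factor genes of the interneuron lineage, had no region in either library.

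Of 9 listed microRNA hosts, 8 lay over 5000 bp from coding starts, and 6 of these had a member, beside the 11.8% of all such genes that were open in both libraries. Mir670hg, which also holds Mir129-2, had 2.37 and 2.65. Mir17hg, which holds the Mir17 to Mir92-1 cluster, had 1.51 and 2.69. Mir124a-1hg, listed by its name as host of a microRNA abundant in neurons, had 1.43 and 1.68. It was not among the genes found above to hold a RefSeq hairpin, so the list and that count use different definitions of a host. Mir142hg and Mir155hg, whose microRNAs are known from blood cells, were open in replicate 2 alone. Of 8 listed hosts of small nucleolar RNAs, all 4 over 5000 bp from coding starts had a member and all 4 near one were open in both libraries, beside 11.8% and 48.9% of all such genes. Snhg12 had 2.93 and 3.12, Snhg6 had 2.09 and 2.93, and Snhg20 had 1.81 and 2.03, each above the member medians of 1.20 and 1.49. Gm37494, the remaining one with members, had 4.11 and 4.91 at its highest region, inside which RefSeq has a coding transcript start. Its other regions were below the medians, with 0.949 and 1.28 and with 0.603 and 1.28.

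Of 6 imprinted ones, 5 lay over 5000 bp from coding starts, and 4 of these had a member, beside 11.8% of all such genes open in both libraries. Kcnq1ot1, whose RNA silences neighbouring genes on the paternal chromosome, had 3.9 in replicate 1 and 3.21 in replicate 2. Meg3, made from the maternal chromosome, had 1.42 and 1.88 at a region centred 783 bp downstream of a start. Mirg, a microRNA-bearing transcript of the same cluster, had 1.87 and 1.75. Airn, the antisense RNA that silences Igf2r, had 0.874 and 0.732. Kcnq1ot1, Mirg and Airn were thus lower in replicate 2, unlike most members. H19 had no region in either list of either library. These animals are hybrids of 2 strains, but the deposited regions are not split by parental allele.

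Of 14 long noncoding RNAs known from other tissues, 1 lay on a chromosome not examined. Of the 8 over 5000 bp from coding starts, 2 had a member and 1 was open in both libraries, which is 12.5% and near the 11.8% of all such genes. Of the 5 near coding starts none was open, beside 48.9% of all such genes. Hotair, Hottip and Halr1 of the Hox clusters were among the 9 with no region in either shorter list. Lncenc1, known from embryonic stem cells, had 0.955 and 1.21, and its region in replicate 2 lay beyond 1000 bp of the start, while Lockd, beside Cdkn1b, had 1.52 and 1.49. Bvht, known from heart, was open in replicate 1 alone and Trp53cor1 in replicate 2 alone.

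As a check of the tissue label on coding promoters, of 9 pan-neuronal markers on chromosomes 1 to 19, 8 were open in replicate 1 and 9 in replicate 2, and of 8 markers of hippocampal neurons 7 and 8 were. Astrocyte markers were open at 4 and 3 of 5 in replicates 1 and 2, oligodendrocyte ones at 3 and 3 of 5, microglial ones at 0 and 3 of 6, and endothelial ones at 0 and 0 of 3. Alb, Apoa1 and Apoa2 of liver and Acta1, Actc1 and Myh1 of muscle were open in neither. Ckm of muscle was open in both, and Ttr, made by liver and choroid plexus, in replicate 2. Counting error could not be attached to a single height, because the sources used here state no sequencing depth. Replicate 2 had 74278 regions in its shorter list and replicate 1 had 54546.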

How the data were processed

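DNase-seq regions of both hippocampus libraries were analysed as deposited. Positions are in mm10, per the labels. The notes deposited with each sample say that regions, footprints and cut rates came from the filtered alignment of that library. The sources used here name neither caller nor threshold. Each region carries the authors' signal height, in a scaling they do not state. Cut rates come with a false discovery rate for every base, deposited up to 0.05 and treated as adjusted p-values. All deposited footprints have the p-value 0.01, treated as the authors' limit. The shorter list of each library was used, and the longer one was an alternative.

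Starts came from GENCODE M21, microRNAs, pseudogenes and other coding starts from RefSeq, and sequence from GRCm38.p6. CpG content, GC content and 15 consensus motifs on both strands were taken in 200 bp around each region centre, and listed bases in 1000 bp. Repeats were taken over the region itself, whatever its width. A near-identical copy had at least 90% identity over at least 90% of the length (BLAST 2.17.0). Python 3.11.15, pandas 2.3.3, numpy 2.4.6, pysam 0.24.0 and matplotlib 3.10.9 were used. The distance and overlap steps were tested on simulated data, and the motif search was not. The height of a shared region in replicate 2 is that of the overlapping region, or of the highest where several overlapped. No such choice was made in replicate 1. In replicate 2, 71 members share their region with another member.

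Libraries formed 1 group, so values are given per library, with mean and SD, and without a test. Named are the 15 highest and 5 lowest members, the extremes of footprints, width, CpG content and library difference, the genes with most members, listed genes and the highest member of some motifs; not all are printed. The member rule, gene lists and motifs were chosen with earlier results of these data known. The alternatives were the longer list, the stronger 50% of regions, a reciprocal overlap of 50%, other distances, other gene types, basic transcripts only, each replicate on its own and, chosen after seeing the data, leaving out members with copies or near RefSeq coding starts.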

Additional observations from a re-analysis of the deposited data

How the results depend on the processing

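Of 94 alternative values, 54 moved by less than the spread between the libraries or, for counts, less than 1.5 times, and 40 moved further. The share of open lncRNA-only genes does not use the overlap of the libraries. Its value with reciprocal overlap was therefore the same by construction, and it is counted among the 54. The number of members, 827 as reported, was 1392 with the longer list, 449 with the stronger 50% of regions, 1247 within 2500 bp of a lncRNA start, and 925 to 1314 with 1 replicate left out. Median height, 1.34 as reported, was 0.873 with the longer list, 2.09 with the stronger regions, and 0.986 to 1.10 with 1 replicate left out. For coding promoter regions, 1.97 as reported, it was 1.36, 2.93 and 1.48 to 1.52 in these settings, and 2.43 with reciprocal overlap of 50%, and members had the lower value in each of these settings. Median CpG ratio, 0.417 as reported, was 0.367 with the longer list, 0.497 with the stronger regions, 0.446 within 500 bp, 0.372 within 2500 bp, 0.429 with other long noncoding types added, and 0.386 to 0.406 with 1 replicate left out. The share with a footprint, 95.2%, was 89.9% with the longer list, 97.7% with reciprocal overlap, 98.9% with the stronger regions, and 89.3% to 91.8% with 1 replicate left out. The share with a CTCF motif, 12.5%, was 9.41% with the longer list, 15% with reciprocal overlap, 19% with the stronger regions, 11.6% within 500 bp, 15.2% within 2500 bp, 13.1% at 2000 bp from coding starts, 11.9% with other types added, 12.8% with basic transcripts only, 12.8% without members near RefSeq coding starts, and 9.74% to 11.2% with 1 replicate left out. Median repeat content, 0.75%, was 2.62% with the longer list. The share of open lncRNA-only genes, 14.5%, was 22.1% with the longer list, 8.12% with the stronger regions and 20.9% within 2500 bp. The causes were not tested. No paired analysis was possible because there was 1 group. Depth is unknown, heights have no stated scale, and 2 libraries that share a donor label give the only replicate check.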

Other observations

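Open lncRNA-only genes were spread over all chromosomes examined. Chromosome 13 had the most members, 79, with 12.6% of its 454 lncRNA-only genes open in both libraries. Chromosome 17 had the highest share, with 18.3% of 252 genes open in both, and chromosome 8 the lowest, with 7.87% of 381. Members were often close to each other: 284 started within 10 kb of another member, and 21 overlapped one.

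Members inside the body of a coding gene, 109 in number, had median heights of 1.11 and 1.40, and the 718 between coding genes had 1.21 and 1.51. Repeats covered a mean of 7.15% and 7.29% of members, 5.57% and 5.58% of coding promoter regions, and 7.91% and 8.15% of distal regions, beside 7.11% and 7.25% of all shared regions, so the members were near the whole. Of 827, 443 held no repeat-masked base, and 1.57% were masked over at least 50% of their length in replicate 1, beside 1.67% of all. In the 3 members with the RFX motif, a footprint overlapped the match by at least 1 base in both libraries. The same held in 100% of such coding promoter regions and in 94% and 96% of such distal regions in replicates 1 and 2. The highest of these members was 1700012C14Rik with 1.38 and 1.62.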
